A study of Mus musculus with 26 samples.

Results

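Tumour libraries whose title has the letter L after its number were compared with tumour libraries whose title has S or M there, among mouse liver tumours started in hepatocytes around the central vein. The 4 L libraries (CAB145-L, CAB26-L, CAB28-L and CAB52-L) and the 4 S/M libraries (CAB170-S2, CAB28-S, CAB228-M and CAB239-M) are 8 of the 26 libraries in the series. The labels do not say what the letter stands for, so it is used here as a name only. The 8 tumours carried the same alleles: Cyp1a2-CreERT2, in which the Cyp1a2 promoter drives a tamoxifen-dependent Cre recombinase, with Ctnnb1(ex3)fl/+ and Arid2fl/fl, on a mixture of C57BL/6J and Swiss Webster backgrounds. Tamoxifen was given on postnatal day 28 and the mice were followed for 6 to 12 months, after which bulk RNA was taken from frozen tumour fragments. The 8 libraries carry 7 animal numbers, because number 28 stands on both sides, and nothing else in the labels ties libraries to cages, litters or days. Periportal-driver (Gls2-CreERT2) tumours with the same floxed alleles and 6 WT livers are quoted only where a value of the 8 is set beside them. The WT livers are titled WT_Cre-BL with a number. For them no tamoxifen day and no shortest follow-up were recorded, only a longest follow-up of 12 months.

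The members were selected on the title letter and on a measured value, the count of Ttn, which encodes the giant muscle protein titin. Another 2 L libraries of the same genotype, CAB44-L and CAB225-L, were left out because Ttn exceeded 1000 CPM (counts scaled to an equal library total). No library lay close to that limit. The nearest below it was CAB52-L with 78.4 CPM of Ttn, and the nearest above it was CAB225-L with 22240. The other 7 members had 2.20 to 13.7.

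Deleting exon 3 of Ctnnb1 removes the residues through which beta-catenin is marked for destruction, so Cre leaves a stable protein that keeps the Wnt programme on; this programme normally runs in hepatocytes next to the central vein and includes glutamine synthetase, Axin2 and Lgr5. ARID2 is a subunit of PBAF, one of the SWI/SNF complexes that move nucleosomes. Liver tumours of this kind can differ in how far they keep hepatocyte metabolism, how fast they divide and whether they express fetal genes again, and those gene groups are described below.

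The 8 libraries were of similar depth. Total counts ranged from 38822779 to 42701884 in L and from 37051941 to 47588109 in S/M. Mitochondrial genes took 2.29% to 3.89% of counts in L and 2.75% to 3.85% in S/M. All 8 libraries held Y-linked transcripts, with Ddx3y between 109 and 183 CPM in L and between 74.4 and 143 in S/M. Among 14 measures per library (depth, mitochondrial share, ribosomal protein level, the share of counts in long genes other than Ttn and 10 summed cell marker lists), every adjusted p was 1 in two-sided exact permutation tests between the groups. With 4 against 4 libraries the smallest p such a test can give is 0.0286 before adjustment.

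Before any comparison of the groups, CAB52-L and CAB145-L stood apart from the other 6 libraries. The distance between a pair of libraries was taken as the root mean square of their log2 differences over the 16148 genes tested. The median distance of a library to the other 7 was 1.37 for CAB52-L and 1.24 for CAB145-L, and between 0.911 and 1.07 for the other 6. CAB52-L had 142 genes more than 4-fold above every other library and 124 more than 4-fold below, and CAB145-L had 50 above and 153 below. CAB28-L, at the other extreme, had 4 above and 7 below.

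**Figure D1:**
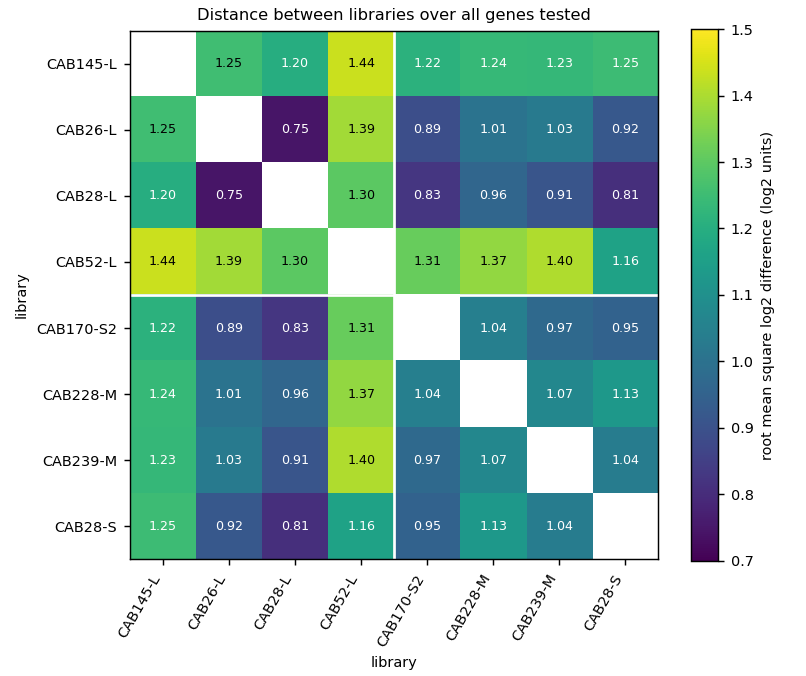
Distance between each pair of the 8 libraries, as the root mean square log2 difference over 16148 genes; both axes list the 4 L libraries and then the 4 S/M libraries, and white lines divide the groups. The rows of CAB145-L and CAB52-L hold the largest distances, up to 1.44 between these 2, and the closest pair is CAB26-L with CAB28-L at 0.747.

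Distances between the groups overlapped those within them. L libraries lay 0.747 to 1.44 apart (median 1.28 over 6 pairs) and S/M libraries 0.952 to 1.13 apart (median 1.04 over 6 pairs), while pairs with 1 library on each side lay 0.808 to 1.40 apart (median 1.09 over 16 pairs). With CAB52-L and CAB145-L left out, a choice made after seeing the data, the 8 mixed pairs had a median of 0.916 and the 6 S/M pairs 1.04. Libraries of different letters therefore lay within the distances found among libraries of 1 letter.

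No gene passed the test between L and S/M. Of 16148 genes tested with edgeR, 0 (0%) had an adjusted p under 0.05, and the smallest adjusted p was 0.993. An unadjusted p under 0.05 was reached by 503 genes (3.11%), of which 267 were higher in L by point estimate (1.65% of those tested) and 236 lower (1.46%). Every L library was above every S/M library for 160 genes (0.991%), and every L library was below every S/M library for 213 (1.32%). For a gene without ties, a share of 0.0286 of all 4 against 4 splits gives such separation in either direction. Together these counts did not exceed that share. The median log2 fold change, L over S/M, was 0.02 over all genes. The 95% intervals, which are not adjusted for the number of genes, reached a median of 0.74 log2 units to either side of the estimate, and genes with far larger estimates also missed the adjusted threshold. DESeq2 called 3 genes, Ank1, Spats2l and Hspa2, and limma-voom with quality weights called 0, with 740 genes at an unadjusted p under 0.05.

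The 24 genes described next are the 12 with the smallest unadjusted p in each direction, among genes averaging at least 5 CPM in the higher group. None passed the adjusted threshold in edgeR. Levels are CPM scaled with TMM, listed for L in the order CAB145-L, CAB26-L, CAB28-L, CAB52-L and for S/M in the order CAB170-S2, CAB28-S, CAB228-M, CAB239-M. Fold changes are log2 values of L over S/M with their 95% intervals. All 24 kept an unadjusted p under 0.05 in the same direction when each library was left out in turn, as did 111 of the 503 genes. The 24 were picked for small p in these same libraries, so this is not separate support for them.

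Hspa2, a heat shock chaperone best known from the testis, had 2.24, 2.46, 3.06 and 1.62 CPM in L and 9.82, 4.74, 6.77 and 5.67 CPM in S/M. All 4 L libraries lay below all 4 S/M libraries, and WT livers had 2.32 to 2.91 CPM, within the range of L. The log2 fold change was -1.52 (-2.22 to -0.82). DESeq2 gave Hspa2 an adjusted p of 0.0336, and its adjusted p in the other 20 alternatives ran from 0.799 to 1.00. The gene lies on chromosome 12 (76404176 to 76406938, mm10, plus strand).

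Eda2r, a receptor of the tumour necrosis factor receptor family and a known p53 target, had the largest log2 fold change in size among the 12 lower genes. Its levels were 2.03, 1.22, 5.78 and 6.36 CPM in L and 39.1, 8.76, 15.5 and 30.6 CPM in S/M, with a log2 fold change of -2.61 (-4.10 to -1.12). The groups did not overlap, and CAB28-S, the S/M library nearest to L, shares its animal number with CAB28-L. Another p53 target, Ccng1, averaged 27.8 ± 7.49 CPM in L and 43.1 ± 8.24 CPM in S/M (SD, n = 4 each), and its groups overlapped. Over the 12 genes of the p53 and senescence list, 7 were lower by point estimate and 5 higher, and none passed. Eda2r was the one whose groups did not overlap (against 1.32% of all genes in that direction).

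Macrod2, an enzyme that removes ADP-ribose from proteins, had 1.36, 0.838, 1.66 and 3.004 CPM in L and 4.81, 5.44, 6.10 and 6.29 CPM in S/M, a log2 fold change of -1.72 (-2.60 to -0.85). Chrna4, a nicotinic acetylcholine receptor subunit, had 2.10, 12.0, 8.57 and 7.74 CPM in L and 34.3, 52.04, 25.3 and 19.3 CPM in S/M, a log2 fold change of -2.11 (-3.29 to -0.93). Both genes were separated without overlap, and in Chrna4 the lowest library was CAB145-L. Aqp8, a water channel of hepatocytes, had 17.1, 21.7, 15.2 and 9.42 CPM in L and 35.6, 30.4, 38.5 and 29.0 CPM in S/M, a log2 fold change of -1.08 (-1.65 to -0.50). Its L values lay on and around the WT range of 11.2 to 19.7 CPM, and its S/M values were all above that range.

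Several genes of low spread differed by less. Otud7b, a deubiquitinating enzyme, had 144, 131, 137 and 119 CPM in L and 220, 203, 177 and 185 CPM in S/M, a log2 fold change of -0.57 (-0.88 to -0.25). Eif1, a translation initiation factor, had 38.5, 57.5, 54.9 and 48.98 CPM in L and 75.4, 75.5, 74.1 and 80.1 CPM in S/M, a log2 fold change of -0.61 (-0.98 to -0.25). In Eif1 the 4 S/M libraries were close together and the L libraries more spread, with CAB145-L the lowest. Copz2, a subunit of the coatomer of Golgi transport vesicles, had a log2 fold change of -1.28 (-1.95 to -0.61), Tbc1d19 one of -0.90 (-1.39 to -0.42), Stra13 one of -0.82 (-1.26 to -0.39) and Smcr8, which acts in autophagy, one of -0.57 (-0.91 to -0.23). In all 12 lower genes, Acly included, the 4 L libraries lay below the 4 S/M libraries; 213 of 16148 genes (1.32%) did so, and the 12 were picked from the small p-values.

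**Figure D2:**
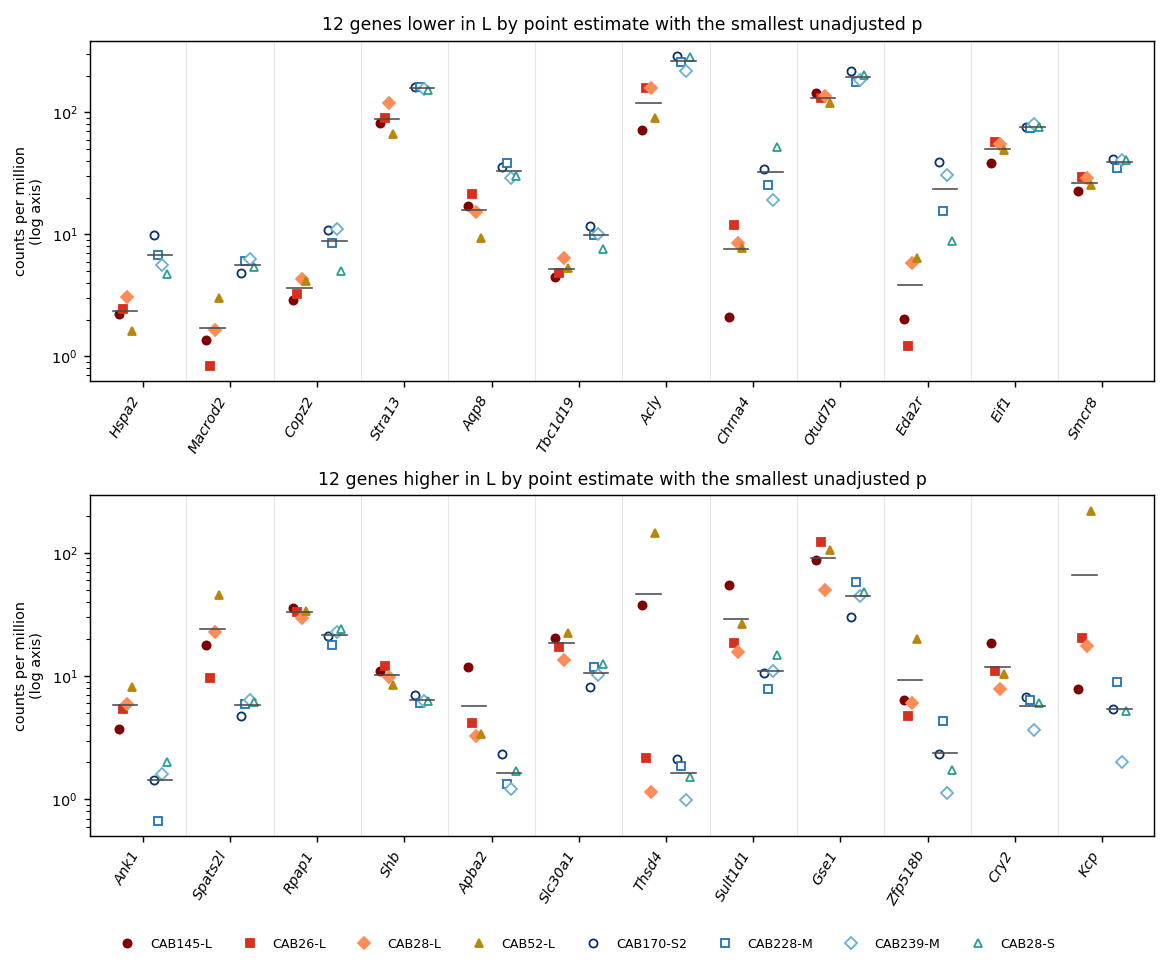
CPM on a log axis for the 12 genes lower in L (upper panel) and the 12 higher in L (lower panel) by point estimate with the smallest unadjusted p; filled points at the left of each gene are the 4 L libraries, open points at the right the 4 S/M libraries, and bars are arithmetic means. The groups separate in every gene except Gse1, Thsd4 and Kcp, and in Thsd4 and Kcp the L mean follows CAB52-L, with 144 and 219 CPM.

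Among the genes higher in L by point estimate, Ank1 had the smallest unadjusted p. It encodes ankyrin 1, which ties membrane proteins to the spectrin skeleton and is best known from red cells. Its levels were 3.69, 5.43, 5.94 and 8.09 CPM in L and 1.43, 2.01, 0.675 and 1.62 CPM in S/M, a log2 fold change of 2.01 (1.12 to 2.90). The groups did not overlap and WT livers had 0.0752 to 0.344 CPM. DESeq2 gave Ank1 an adjusted p of 0.0140, and the other 20 alternatives gave 0.449 to 1.00. The summed level of 5 erythroid genes was 9.24 to 75.2 CPM in L and 28.9 to 80.9 CPM in S/M. Most of that sum was Alas2, with a mean of 38.4 CPM in L and 47.6 CPM in S/M. The globin genes went the other way by mean, Hbb-bs with 2.34 CPM in L and 1.22 CPM in S/M. Hbb-bt had 2.68 CPM in L and 1.75 CPM in S/M. None of these genes passed the adjusted threshold. Ank1 lies on chromosome 8 (22974844 to 23150497, plus strand).

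Spats2l had 17.9, 9.57, 22.9 and 45.6 CPM in L and 4.79, 6.13, 5.96 and 6.42 CPM in S/M, a log2 fold change of 2.04 (1.05 to 3.03). The 4 S/M libraries were close together, and the L libraries were spread out above them. DESeq2 gave it an adjusted p of 0.0336 and the other 20 alternatives 0.637 to 1.00. Both L libraries that had been left out for their Ttn count were higher still, with 189 CPM in CAB44-L and 264 CPM in CAB225-L. Ank1 was also above the 4 L libraries there, at 52.8 CPM in CAB44-L and 19.1 CPM in CAB225-L. Other genes differed: Hspa2 had 9.57 CPM in CAB44-L and 9.15 CPM in CAB225-L, within the S/M range. Slc30a1, described next, had 9.42 CPM in CAB44-L and 8.48 CPM in CAB225-L, also within the S/M range.

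Slc30a1, a zinc exporter of the plasma membrane, had 20.4, 17.4, 13.6 and 22.3 CPM in L and 8.13, 12.5, 11.8 and 10.3 CPM in S/M, a log2 fold change of 0.79 (0.29 to 1.29). Sult1d1, a sulfotransferase, had 55.0, 18.6, 15.7 and 26.6 CPM in L and 10.5, 14.9, 7.88 and 11.1 CPM in S/M, a log2 fold change of 1.39 (0.45 to 2.32). Cry2, a repressor of the circadian clock, had 18.4, 10.9, 7.82 and 10.4 CPM in L and 6.77, 6.08, 6.42 and 3.67 CPM in S/M, a log2 fold change of 1.05 (0.33 to 1.77). All 3 were separated without overlap, CAB145-L was the highest in Sult1d1 and Cry2, and WT livers were above every one of the 8 libraries in each of the 3. The hour of tissue collection is not in the labels, so its part in the Cry2 values was not tested.

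Rpap1, a partner of RNA polymerase II, had a log2 fold change of 0.62 (0.27 to 0.97), the adaptor Shb one of 0.68 (0.26 to 1.10), the neuronal adaptor Apba2 one of 1.79 (0.68 to 2.90) and the zinc finger gene Zfp518b one of 1.97 (0.64 to 3.31), all without overlap. Gse1, with a log2 fold change of 1.01 (0.33 to 1.70), overlapped in 1 library of each group. Thsd4, a protein of the fibrillin matrix, had 37.8, 2.18, 1.16 and 144 CPM in L and 2.12, 1.53, 1.86 and 1.00 CPM in S/M. Kcp, a secreted modulator of BMP signalling, had 7.81, 20.3, 17.4 and 219 CPM in L and 5.40, 5.25, 8.99 and 2.02 CPM in S/M. In Thsd4, CAB26-L and CAB28-L lay at the level of the S/M libraries, so its log2 fold change of 4.82 (1.59 to 8.06) came from CAB145-L and CAB52-L.

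Fat synthesis was the gene group whose median was farthest below 0 among lists with at least 6 genes tested. Of 13 lipogenesis genes, 12 were lower in L by point estimate and 0 passed the adjusted threshold. An unadjusted p under 0.05 was reached by 4 (against 1.46% of all genes in that direction). Acly and Gpam did not overlap between the groups (against 1.32% of all genes in that direction). The median log2 fold change of the list was -1.12, against 0.02 over all genes tested.

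Acly makes cytosolic acetyl-CoA from citrate. It had 72.0, 158, 158 and 90.0 CPM in L and 289, 284, 259 and 220 CPM in S/M, a log2 fold change of -1.14 (-1.77 to -0.51), and lies on chromosome 11 (100476353 to 100528000, minus strand). Gpam, which adds the first fatty acid to glycerol phosphate, had 333, 576, 541 and 321 CPM in L and 725, 720, 728 and 602 CPM in S/M, a log2 fold change of -0.65 (-1.17 to -0.12). In both genes CAB145-L and CAB52-L were the lowest, and CAB26-L and CAB28-L lay between them and S/M.

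Fasn, the fatty acid synthase, had 102, 497, 470 and 141 CPM in L and 593, 569, 1549 and 484 CPM in S/M, a log2 fold change of -1.40 (-2.78 to -0.02). Acacb, an acetyl-CoA carboxylase, had 177, 224, 170 and 38.6 CPM in L and 429, 195, 535 and 346 CPM in S/M, a log2 fold change of -1.30 (-2.47 to -0.14). The stearoyl-CoA desaturase Scd1 had 989, 4000, 3459 and 1106 CPM in L and 4799, 3175, 11891 and 4155 CPM in S/M. The groups overlapped in all 3 genes. CAB145-L and CAB52-L were the lowest libraries in Fasn and Scd1, CAB52-L was the lowest in Acacb, and CAB228-M was the highest in all 3. Thrsp, a lipogenic regulator, had 4.56 CPM in CAB145-L and 4.03 CPM in CAB52-L, and 24.3 to 81.0 CPM in the other 6. Srebf1, the transcription factor that turns on this set, was the 1 member with a point estimate above 0, at 202, 468, 360 and 220 CPM in L and 327, 366, 212 and 224 CPM in S/M.

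CAB145-L was the lowest of the 8 libraries in 7 of the 13 lipogenesis genes and CAB52-L in 5, while CAB228-M was the highest in 9. Deviations were taken from each gene's median over the 8 libraries. The list's median deviation was -1.17 log2 units in CAB145-L and -1.05 in CAB52-L, and lay between -0.10 and 1.13 in the other 6. With CAB52-L and CAB145-L left out, a choice made after seeing the data, the list's median log2 fold change was -0.45. It was -0.65 without CAB228-M alone and -0.50 with limma-voom quality weights. Some markers of other cells also had their lowest or highest values in CAB145-L, CAB52-L or CAB228-M. Macrophage and Kupffer cell markers were lowest in CAB145-L in 9 of 13 genes and highest in CAB228-M in 8, endothelial markers were lowest in CAB52-L in 6 of 12 and highest in CAB228-M in 9, and cholangiocyte markers were lowest in CAB145-L in 5 of 6. Marker levels did not follow these libraries throughout. Endothelial genes had a median deviation of 0.13 in CAB145-L, and cholangiocyte genes 0.01 in CAB52-L and -0.08 in CAB228-M. Stellate cell and fibroblast genes summed to 649 CPM in CAB52-L, the highest of the 8, and to 233 CPM in CAB228-M. The part of these cells in the lipid values was not tested.

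**Figure D3:**
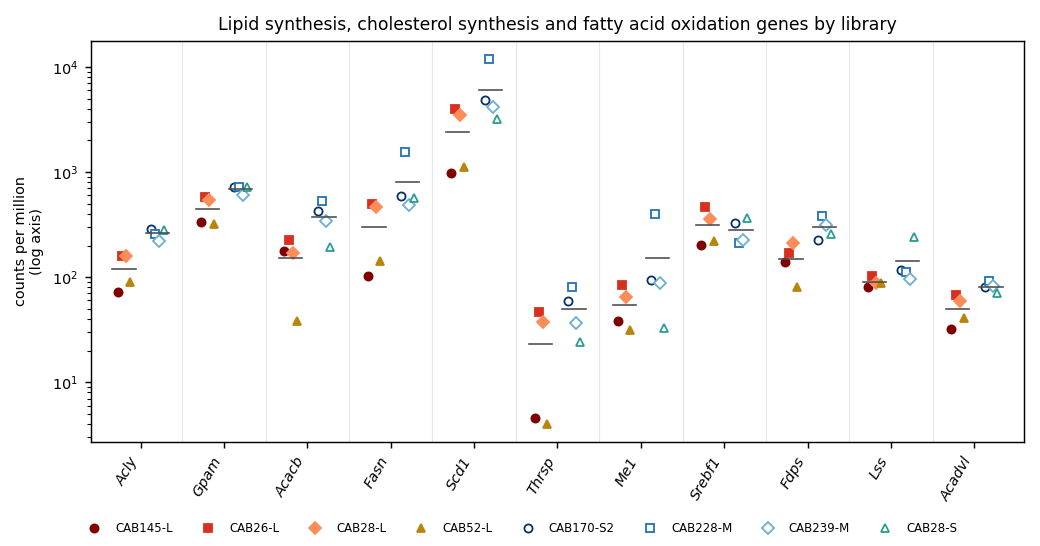
CPM on a log axis of 8 lipogenesis genes (Acly to Srebf1), 2 cholesterol synthesis genes (Fdps, Lss) and Acadvl of fatty acid oxidation; filled points at the left of each gene are the 4 L libraries, open points at the right the 4 S/M libraries, and bars are arithmetic means. CAB145-L and CAB52-L lie lowest in most lipogenesis genes, and in Thrsp they stand at 4.56 and 4.03 CPM, under the 24.3 to 81.0 CPM of the other 6.

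Cholesterol synthesis showed 10 of 12 genes lower in L by point estimate, none past the threshold, 1 with an unadjusted p under 0.05 (against 1.46% of all genes in that direction) and a median log2 fold change of -0.47. CAB228-M was the highest library in 7 of the 12, and without it the median was -0.12. The gene with the small p, Fdps, which makes farnesyl diphosphate, had 139, 171, 210 and 79.8 CPM in L and 227, 259, 385 and 316 CPM in S/M, a log2 fold change of -0.98 (-1.68 to -0.29). It was without overlap, as were 1.32% of all genes in that direction. Lss, the lanosterol synthase, had 81.4 to 102 CPM in L and 95.2 to 240 CPM in S/M, and CAB28-S held its highest value.

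Fatty acid oxidation had 10 of 15 genes lower by point estimate, none past the threshold and a median of -0.31. Acadvl, the very long chain acyl-CoA dehydrogenase, had 32.2, 67.5, 59.4 and 41.2 CPM in L and 80.5, 70.1, 91.3 and 81.7 CPM in S/M, a log2 fold change of -0.69 (-1.24 to -0.14). It was without overlap, as were 1.32% of all genes in that direction. The PPAR alpha target Cyp4a14 was high in 1 library: CAB228-M had 440 CPM, against 1.22 to 12.3 CPM in L and 2.09 to 5.52 CPM in the other 3 S/M libraries. Cyp4a10 followed the same library, with 76.4 CPM in CAB228-M, 1.84 to 11.9 CPM in L and 3.37 to 11.8 CPM in the other 3. CAB228-M was the highest of the 8 libraries in 13 of the 15 genes of the list.

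Glucose metabolism gave small differences. Of 16 glycolysis genes, 10 were higher in L by point estimate and none passed, with a median of 0.19. The glucose transporter Slc2a1 was the one without overlap (against 0.991% of all genes in that direction). It had 12.8, 6.42, 7.17 and 6.41 CPM in L and 4.14, 5.92, 4.70 and 6.19 CPM in S/M, and its log2 fold change was 0.65 (-0.01 to 1.30). Gluconeogenesis had 5 of 7 genes higher and a median of 0.18. Tat, tyrosine aminotransferase, had 781, 214, 241.7 and 84.2 CPM in L and 162, 129, 218 and 87.4 CPM in S/M, and CAB145-L held by far the highest value. In the hypoxia response, 9 of 11 genes tested were lower by point estimate, with a median of -0.18 and none past the threshold.

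The targeted genes and the Wnt programme did not separate the groups. Arid2 had 34.4, 23.96, 24.7 and 28.2 CPM in L and 29.4, 26.5, 29.4 and 25.5 CPM in S/M, against 64.1 to 76.9 CPM in WT livers, and its log2 fold change between L and S/M was 0.01 (-0.37 to 0.38). Ctnnb1 had 79.1, 104, 116 and 169 CPM in L and 109, 112, 112 and 89.1 CPM in S/M, a log2 fold change of 0.15 (-0.38 to 0.67). The counts were per gene, so the loss of the floxed exons was not checked. WT livers also differed from the tumours in depth and in the share of counts in long genes, as given above.

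Axin2, the feedback inhibitor read as a general Wnt target, had 114, 206, 224 and 104 CPM in L and 400, 116, 122 and 217 CPM in S/M, and all 8 libraries were above the WT range of 7.64 to 13.8 CPM. Its log2 fold change was -0.40 (-1.41 to 0.62), and it was 0.10 without CAB170-S2, which held the highest value. Glul, glutamine synthetase, had 1471, 2410, 3067 and 377 CPM in L and 2145, 1116, 2344 and 2227 CPM in S/M, and CAB52-L stood below the WT range of 1061 to 1191 CPM. Nkd1, a Wnt inhibitor, ranged from 6.71 CPM in CAB52-L to 152 CPM in CAB28-L within L, and from 9.34 CPM in CAB228-M to 152 CPM in CAB170-S2 within S/M. Lgr5, also of the Wnt programme, had 12.1 to 26.4 CPM in L and 8.72 to 22.5 CPM in S/M, and Notum, a secreted Wnt-inactivating enzyme, 47.1 to 119 CPM in L and 59.8 to 194 CPM in S/M. Over the 18 Wnt targets, 11 were higher in L by point estimate and 7 lower, none passed or separated the groups, and the median log2 fold change was 0.10. The 12 SWI/SNF subunits had a median of 0.09 and none passed.

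Both extremes of most mitosis genes lay within L. Mki67, a marker of dividing cells, had 193, 62.4, 186 and 650 CPM in L and 226, 188, 152 and 267 CPM in S/M, against 5.04 to 11.4 CPM in WT livers. Its log2 fold change was 0.39 (-0.98 to 1.76). The highest and the lowest of the 8 libraries were both L, CAB52-L and CAB26-L. CAB26-L was the lowest of the 8 in all 20 mitosis genes, and CAB52-L was the highest in 17. The spindle protein Prc1 had 10.6 CPM in CAB26-L and 161 CPM in CAB52-L, and 38.9 to 66.5 CPM in the other 6.

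The mitosis list had 15 of 20 genes higher in L by point estimate, none with an unadjusted p under 0.05, and a median log2 fold change of 0.30. That median was -0.75 with CAB52-L and CAB145-L left out, and it lay between -0.20 and 0.61 when 1 library was left out at a time. DNA replication had 12 of 15 genes higher and a median of 0.14, with CAB26-L the lowest library in 11 of them. Myc and the G1 cyclins had 9 of 11 genes higher and a median of 0.20. In growth factor receptors the median was -0.02 over 12 genes, and Fgfr2 had 53.4, 127, 97.7 and 324 CPM in L and 71.7, 79.5, 47.4 and 38.0 CPM in S/M.

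The fetal genes Igf2, H19 and Afp were highest in CAB52-L, and Igf2 and H19 came next in CAB145-L and CAB28-S. Igf2, the fetal insulin-like growth factor, had 4519, 1.80, 10.02 and 39134 CPM in L and 1.37, 131, 26.2 and 3.22 CPM in S/M, against 0.0689 to 0.745 CPM in WT livers. H19, the non-coding RNA of the same imprinted region, had 389, 2.18, 6.60 and 21779 CPM in L and 0.432, 618, 8.47 and 2.02 CPM in S/M. Afp, the fetal serum protein alpha-fetoprotein, had 1.24, 9.70, 5.01 and 1378 CPM in L and 4.99, 24.2, 0.486 and 6.77 CPM in S/M. The groups overlapped in all 3 genes, and Afp, high in CAB52-L, was below the WT range of 2.07 to 5.05 CPM in CAB145-L. Igf2 lies on chromosome 7 (142650766 to 142666816) and H19 on the same chromosome (142575529 to 142578143), both on the minus strand.

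The log2 fold changes of these genes rested on these libraries. Igf2 had 8.08 (1.16 to 14.99), which became -2.77 with CAB52-L and CAB145-L left out. H19 had 5.14 (-1.88 to 12.16) and Afp 5.26 (0.08 to 10.43), and without CAB52-L alone they were -0.24 and -0.78. None passed the adjusted threshold in any of the 21 alternatives.

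CAB52-L also held the highest Gpc3, an oncofetal surface proteoglycan, at 350 CPM, with 0.279 to 1.05 CPM in the other 3 L libraries and 0.675 to 13.2 CPM in S/M. The cystine transporter Slc7a11 had 309 CPM in CAB52-L, with 0.863 to 3.32 CPM in the other 3 L libraries and 0.0540 to 8.12 CPM in S/M. Grb10, an imprinted adaptor that dampens insulin signalling, had 179 CPM in CAB52-L, with 7.34 to 13.5 CPM in the other L libraries and 8.93 to 16.7 CPM in S/M. CAB145-L instead held the highest Meg3 and Rian, non-coding RNAs of the Dlk1-Dio3 imprinted region. Meg3 had 1318 CPM in CAB145-L, 31.3 to 111 CPM in the other 3 L libraries and 103 to 505 CPM in S/M, and Rian had 201 CPM in CAB145-L, 4.06 to 16.6 CPM in the other 3 and 15.4 to 84.6 CPM in S/M. Prom1, a progenitor surface marker, was highest in CAB52-L at 522 CPM and in CAB145-L at 254 CPM, and lowest in CAB26-L at 8.48 CPM, with 30.2 to 75.2 CPM in S/M.

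Of 12 imprinted genes tested, 11 were higher in L by point estimate and 1 had an unadjusted p under 0.05 (against 1.65% of all genes in that direction), with a median log2 fold change of 0.79, which was -0.93 with CAB52-L and CAB145-L left out. Of 10 oncofetal and progenitor genes tested out of 14 listed, 8 were higher, 1 had an unadjusted p under 0.05 (against the same 1.65%) and the median was 0.55. CAB52-L was the highest library in 6 of the 12 imprinted genes and in 5 of the 10 oncofetal and progenitor genes. No member of either list passed the adjusted threshold or separated the groups.

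**Figure D4:**
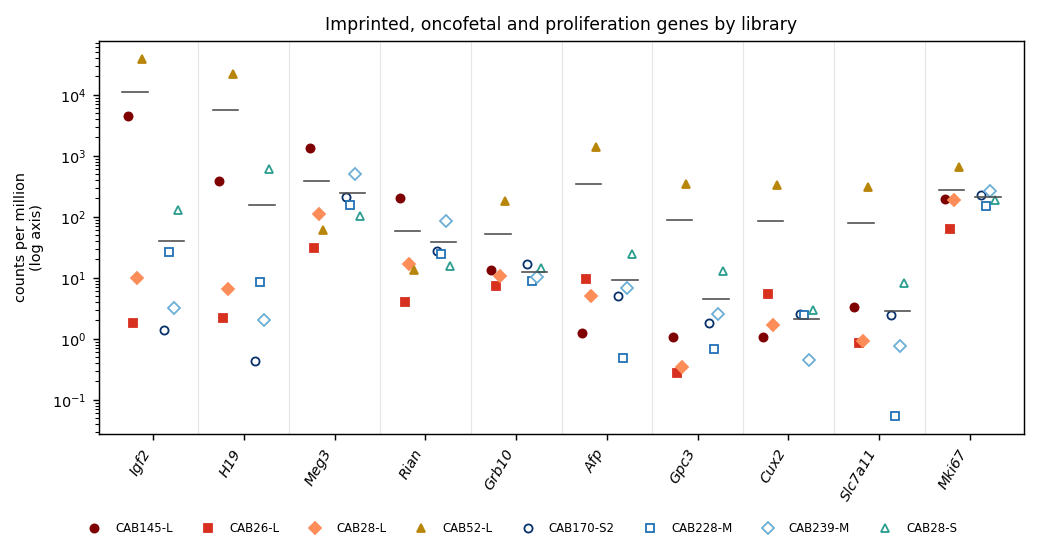
CPM on a log axis of 5 imprinted genes (Igf2, H19, Meg3, Rian, Grb10), the fetal markers Afp and Gpc3, and Cux2, Slc7a11 and Mki67; filled points at the left of each gene are the 4 L libraries, open points at the right the 4 S/M libraries, and bars are arithmetic means. CAB52-L is highest in 8 of the 10 genes, CAB145-L in Meg3 and Rian, and CAB28-S is highest of S/M in H19 at 618 CPM and in Afp at 24.2 CPM.

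Hepatocyte functions differed between libraries more than between letters. Albumin (Alb) had 4889, 11869, 8722 and 29797 CPM in L and 10494, 17824, 7031 and 10534 CPM in S/M, all below the 52386 to 74205 CPM of WT livers. Prox1, a hepatocyte transcription factor, had 532, 728, 465 and 482 CPM in L and 226, 476, 363 and 344 CPM in S/M, overlapping in 1 library of each group. The 14 hepatocyte identity genes tested had a median log2 fold change of 0.10, with CAB145-L the lowest library in 8 of them.

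Periportal genes, which mark the portal end of the lobule, had 11 of 14 genes higher in L by point estimate and a median of 0.41, and the groups overlapped in every member. CAB26-L was the highest library in 10 of the 14, CAB52-L the lowest in 6 and CAB145-L in 4. Cyp2f2 showed this spread, at 5.43, 157, 101 and 1.41 CPM in L and 40.2, 14.8, 52.9 and 6.89 CPM in S/M, and so did Sds, serine dehydratase, at 4.21, 33.9, 37.2 and 1.33 CPM in L and 14.0, 6.16, 23.0 and 1.47 CPM in S/M. Gls2, the periportal glutaminase, had 5.80, 53.3, 35.5 and 2.65 CPM in L and 23.8, 23.0, 17.1 and 2.70 CPM in S/M.

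Pericentral genes had a median of -0.05, 6 of 14 higher, and Cyp1a2, whose promoter drives the Cre, had 231, 270, 295 and 150 CPM in L and 205, 120, 233 and 247 CPM in S/M. The urea cycle had 6 of 8 genes higher and a median of 0.17. Its entry enzyme Cps1 had 628, 687, 576 and 275 CPM in L and 316, 504, 224 and 233 CPM in S/M, so that 3 of 4 L libraries were above all S/M libraries and CAB52-L was not. Ass1, argininosuccinate synthase, had 792 CPM in CAB145-L and 31.1 CPM in CAB52-L, and 119 to 238 CPM in the other 6. Bile acid genes had a median of 0.22, and CAB26-L was the highest library in 9 of 10.

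Sex-biased liver genes split L in the same way, although all 8 libraries held Y-linked transcripts. CAB52-L was the lowest library in 8 of 9 male-biased genes, and the list's median deviation was -4.72 log2 units in CAB52-L, -2.19 in CAB145-L, 1.20 in CAB26-L and 1.09 in CAB28-L, and between -0.89 and 1.49 in S/M. The male-biased urinary protein gene Mup20 had 20.4, 110, 318 and 1.14 CPM in L and 21.4, 112, 20.4 and 107 CPM in S/M. The female-biased regulator Cux2 had 337 CPM in CAB52-L, 1.05 to 5.48 CPM in the other L libraries and 0.449 to 2.92 CPM in S/M. Cyp3a41a, another female-biased gene, had 30.8 CPM in CAB145-L and 4.09 CPM in CAB52-L, with 0 to 0.432 CPM in CAB26-L, CAB28-L and all S/M libraries. All 7 female-biased genes tested of 10 listed were higher in L by point estimate, 2 with an unadjusted p under 0.05 (against 1.65% of all genes in that direction), with a median of 1.68. CAB52-L was the highest library in 4 of these 7 and CAB145-L in 3, and the 9 male-biased genes had a median of 0.01.

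Acute phase genes included 1 gene without overlap, higher in L (against 0.991% of all genes in that direction). Saa2, serum amyloid A2, had 7.86, 18.5, 36.6 and 7.90 CPM in L and 3.38, 6.32, 7.23 and 4.79 CPM in S/M, a log2 fold change of 1.70 (0.50 to 2.91), against 7.72 to 864 CPM in WT livers. Saa1 was highest in CAB28-L at 102 CPM and CAB26-L at 59.8 CPM, with 13.1 CPM in CAB145-L, 12.8 CPM in CAB52-L and 9.35 to 15.8 CPM in S/M. Reads of Saa1 and Saa2 can be shared between these near-identical genes. Of the 13 acute phase genes, 9 were higher in L by point estimate, 4 had an unadjusted p under 0.05 (against 1.65% of all genes in that direction) and the median log2 fold change was 0.49, which was 0.10 without CAB52-L.

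Interferon response genes were all higher in L by point estimate, 13 of 13 with 1 unadjusted p under 0.05 (against 1.65% of all genes in that direction) and a median of 0.49, and the groups overlapped in every member. The median was 0.30 without CAB170-S2 and 1.12 without CAB28-S. The interferon-induced gene Ifit3 had 18.5, 5.74, 38.3 and 12.6 CPM in L and 4.63, 16.8, 5.37 and 9.99 CPM in S/M. CAB170-S2 was the lowest library in 10 of the 13 genes, and both libraries of animal number 28 were the highest on the list's median deviation, at 0.77 log2 units in CAB28-L and 0.78 in CAB28-S. Antigen presentation by MHC class I had 7 of 9 genes higher and a median of 0.18, with B2m at 613 to 1076 CPM in L and 400 to 795 CPM in S/M.

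Of the Nrf2 and glutathione genes, Gstp1, a glutathione transferase, was without overlap (against 0.991% of all genes in that direction). Its levels were 213, 87.8, 94.3 and 109 CPM in L and 58.4, 75.1, 69.4 and 69.2 CPM in S/M. All were well under the 519 to 957 CPM of WT livers, and its log2 fold change was 0.89 (0.23 to 1.55). The list had 6 of 13 genes higher and a median of -0.06. Endoplasmic reticulum stress and amino acid response genes had a median of 0.00 with 7 of 13 higher, and CAB52-L was the highest library in 8 of them. Asns, asparagine synthetase, had 32.2, 30.7, 16.4 and 203 CPM in L and 12.5, 83.4, 5.78 and 1.62 CPM in S/M. In the Hippo pathway the median was 0.00 over 6 genes, and in neither list did a gene pass.

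Markers of other cells overlapped between the groups. In bulk RNA, fewer cells of a type and less RNA per cell cannot be told apart. The summed level of 13 macrophage and Kupffer cell genes was 78.0 to 217 CPM in L and 88.1 to 253 CPM in S/M, that of 12 endothelial genes 268 to 401 CPM in L and 282 to 463 CPM in S/M, and that of 12 stellate cell and fibroblast genes 228.4 to 649 CPM in L and 233 to 440 CPM in S/M. Cholangiocyte markers summed to 51.4 to 164 CPM in L and 113 to 199 CPM in S/M. T and NK cell markers stayed between 1.14 and 4.76 CPM in L and between 1.10 and 3.14 CPM in S/M, B and plasma cell markers between 0.608 and 2.16 CPM in L and between 0.724 and 2.55 CPM in S/M, and neutrophil markers between 6.55 and 21.6 CPM in L and between 10.3 and 16.0 CPM in S/M. The macrophage marker Adgre1 had 5.33, 11.3, 15.3 and 5.01 CPM in L and 10.6, 15.6, 24.4 and 8.07 CPM in S/M.

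Of the genes tested in these lists, median log2 fold changes were -0.12 for macrophages (13 genes), 0.01 for endothelium (12), 0.22 for stellate cells and fibroblasts (12), -0.51 for cholangiocytes (6), -0.06 for T and NK cells (2), 0.37 for B and plasma cells (3), 2.47 for neutrophils (3) and 0.61 for erythroid cells (3). No marker in any of them passed or separated the groups. Every marker found in the table had at least 1 count in the 8 libraries. Collagen and matrix genes had a median of 0.14, with Sparc at 805 CPM in CAB52-L, 54.0 to 83.3 CPM in the other L libraries and 58.4 to 71.5 CPM in S/M. Mesenchymal transition genes had a median of 0.25 over 8 genes, and sarcomere genes, which include the Ttn used to choose the libraries, one of 0.65 over 6.

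**Figure D5:**
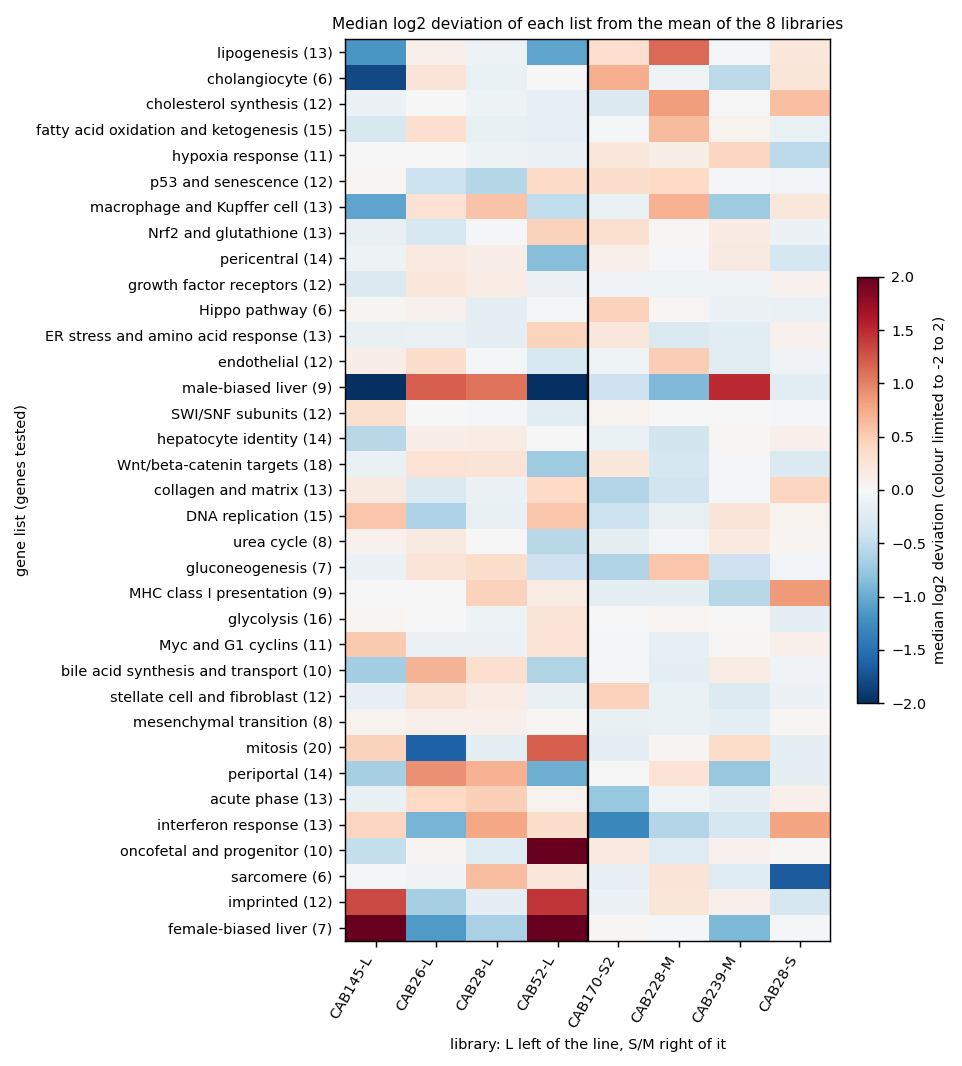
Median log2 deviation of each gene list (colour), for lists with at least 6 genes tested. Deviations are from each gene's median over the 8 libraries, although the plot title says mean. Rows run from the lowest median log2 fold change of L over S/M at the top to the highest at the bottom. L libraries are left of the line and S/M right of it. CAB52-L and CAB145-L carry the strongest colours, for example -4.72 and -2.19 in male-biased genes, while CAB26-L and CAB28-L go the other way, at 1.20 and 1.09.

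The libraries CAB28-L and CAB28-S share an animal number and differ in letter. Their distance of 0.808 was the second smallest among the 28 pairs. Between them, 361 genes were more than 4-fold higher in CAB28-L and 223 more than 4-fold lower, and with 1 library on each side there was no test. Bnc2, a zinc finger gene, had 55.6 CPM in CAB28-L and 4.21 CPM in CAB28-S, and 0 to 4.99 CPM in the other 6 libraries. Apoa4, an apolipoprotein, had 142 CPM in CAB28-L and 1416 CPM in CAB28-S, and 391 to 938 CPM in the other 6. H19 had 6.60 CPM in CAB28-L and 618 CPM in CAB28-S, the reverse of the direction of the group means.

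Tumours of the periportal driver offer 1 animal number, GAB242, with libraries of all 3 letters, which the choice of members did not use. For 16 of the 24 genes above (66.7%), GAB242-L lay on the side of both GAB242-M and GAB242-S that the L libraries had taken, and for 4 (16.7%) it lay on the opposite side. Over the 503 genes with an unadjusted p under 0.05 these shares were 53.1% and 24.3%, and over all 16148 genes tested 45.3% and 30.4%. Spats2l had 58.6 CPM in GAB242-L, 11.7 CPM in GAB242-M and 37.7 CPM in GAB242-S, and Thsd4 had 57.1 CPM in GAB242-L, 1.85 CPM in GAB242-M and 1.69 CPM in GAB242-S. Ank1 went the other way, with 8.97 CPM in GAB242-L, 46.6 CPM in GAB242-M and 49.6 CPM in GAB242-S. Acly had 227 CPM in GAB242-L, 259 CPM in GAB242-M and 251 CPM in GAB242-S. In the mitosis list GAB242-L was above both partners in 20 of 20 genes, and in lipogenesis it was above both in 5 and below both in 8. Over all 16148 genes tested it was above both in 6155 and below both in 6074. These are values of 1 animal number with 1 library per letter and carry no test.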

How the data were processed

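Bulk RNA sequencing of frozen liver tumour tissue gave 1 library per sample, made from total RNA with a Nugen Ovation kit per the labels' protocols. The authors deposited 1 table of unnormalized read counts, all whole numbers, by gene symbol for 26 libraries. The build was mm10, per the submitters' processing notes, and the aligner, counting program, annotation and strand setting were not given in the sources used here. Without strand, overlapping and antisense genes are uncertain, as are near-identical genes (Mup, Cyp, Gst, Saa and H2 families).

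Libraries were taken by the letter in their titles, leaving out those above 1000 CPM of Ttn. Members, gene lists and tests were chosen with earlier results of these data known. The 4 L and 4 S/M libraries, 37051941 to 47588109 counts each, were fitted alone with edgeR 4.0.16 (R 4.3.3): filterByExpr kept 16148 of 35976 symbols, TMM scaled the libraries, and the robust quasi-likelihood test was adjusted by Benjamini-Hochberg over all genes, with a threshold of 0.05. Libraries were counted as replicates, and p-values measure the spread between them only. CPM are counts relative to the TMM-scaled library totals, and distances used log2 CPM with a prior count of 2. Intervals are 95%.

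Genes named were up to 12 per direction past the threshold with at least 5 CPM in the higher group, the free places going to the smallest unadjusted p, then up to 3 of lowest p from each list, and the targets and drivers Arid2, Ctnnb1, Gls2 and Cyp1a2, with Axin2, Glul, Afp, Igf2, H19, Mki67, Ttn, Alb, Xist and Ddx3y. The text gives part of these, and list members and genes that describe single libraries were also picked after their values were seen. The 40 lists hold 456 symbols, of which 452 were in the table and 417 were tested. They were described by counts and medians only. Coordinates are those of GENCODE M21 on mm10, by symbol. Alternatives used other scaling factors and filters, DESeq2 1.42.0, limma 3.58.1, other sets of libraries and each library left out in turn.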

Additional observations from a re-analysis of the deposited data

Results flagged for a closer look

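In 39 of 208 groups of 4 values examined (each gene with levels given here, and each measure per library, in L and in S/M), the highest or lowest library lay far from the other 3 by Dixon's criterion. For normally distributed values about 1 in 20 groups would pass. The criterion was applied to values without a log, which are skewed for many genes, so that share need not hold here. Many of the genes were also named because 1 library stood out. In Igf2, CAB145-L with 4519 CPM was itself well above CAB26-L with 1.80 CPM and CAB28-L with 10.02 CPM.

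CAB52-L was far from the other L libraries in 13 of them. It was far above in Igf2 (39134 CPM), H19 (21779), Afp (1378), Cacna1b (2744), Sparc (805), Gpc3 (350), Cux2 (337), Slc7a11 (309), Kcp (219), Asns (203), Grb10 (179), Zfp518b (20.2) and in the summed mesenchymal transition genes (26225 CPM). CAB145-L was far above the other L libraries in 7 genes, Meg3 (1318 CPM), Bglap3 (810), Rian (201), Ren1 (58.1), Cyp3a41a (30.8), Slc2a1 (12.8) and Apba2 (11.9). CAB26-L was far above in Cyp4a10 (11.9 CPM) and far below in total counts (38822779), and CAB28-L was far above in Bnc2 (55.6 CPM).

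Within S/M, CAB228-M was far above in Fasn (1549 CPM), Cyp4a14 (440), Me1 (399), Cyp4a10 (76.4), Cyp3a41a (0.432) and the summed neutrophil markers (16.0), and far below in Smcr8 (35.1). CAB28-S was far above in H19 (618 CPM), Lss (240), Asns (83.4), Cacna1b (63.6) and Gpc3 (13.2), and far below in Glul (1116). CAB239-M was far below in Gpam (602 CPM) and Ctnnb1 (89.1), and CAB170-S2 was far above in Lrch2 (64.1 CPM).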

How the results depend on the processing

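Over 21 alternatives to the edgeR fit, the count of genes past the adjusted threshold was 0 in each direction except with DESeq2, which called 2 genes higher (Ank1 2.02, Spats2l 2.05 on the log2 scale) and 1 lower (Hspa2 -1.52), so the 3 calls depend on the tool. The count of genes with an unadjusted p under 0.05, 503 in the reported fit, was 756 with no filter on low counts, 1282 with all 26 libraries in 1 fit, 1031 with limma-voom on all 26 libraries and a random effect of animal number (chosen after seeing the data), 1289 with CAB44-L and CAB225-L kept in L, and 304 for L against S only. Leaving out 1 library gave 331 (without CAB239-M) to 709 (without CAB28-L). Of the 503 genes, 214 had groups that did not overlap, and 121 kept their direction and an unadjusted p under 0.05 with CAB52-L and CAB145-L left out.

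Of 819 recomputed values of 39 genes, 796 kept their direction and side of the threshold and 20 changed sign. With CAB52-L and CAB145-L left out (chosen after seeing the data), log2 fold changes were -2.77 for Igf2, -5.16 for H19, -0.31 for Afp, -0.74 for Mki67, 0.010 for Axin2 and -0.19 for Arid2. With quality weights they were -0.61 for Mki67 and -0.12 for Arid2, with the random effect -0.052 and -0.012, for L against S only -0.0038 for Arid2, and with CAB44-L and CAB225-L kept 0.38 for Axin2. Leaving out 1 library gave -0.24 to 10.59 for H19, -0.78 to 6.41 for Afp, -0.50 to 0.72 for Mki67, -0.60 to 0.10 for Axin2, -0.079 to 0.30 for Ctnnb1 and -0.11 to 0.071 for Arid2. The cause of these changes was not tested beyond which libraries were in the fit.

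No paired analysis was possible because animal number 28 alone stands in both groups. Sex as a covariate was not run, since all 8 libraries held Y-linked transcripts. The letter is unexplained, 4 libraries a group from 7 animal numbers set the precision, and litter, position in the liver and time of collection beyond the values given were not tested.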

Other observations

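Some genes that describe single libraries were shared with a tumour of the other driver. Bglap3, an osteocalcin-related gene, had 810 CPM in CAB145-L and 0.0454 to 1.33 CPM in the other 7 libraries, and GAB242-L had 1840 CPM against 0.272 CPM in GAB242-M and 0.367 CPM in GAB242-S. Ren1, the renin gene, had 58.1 CPM in CAB145-L and 0.162 to 0.635 CPM in the other 7, and GAB242-L had 35.3 CPM against 2.44 CPM in GAB242-M and 13.004 CPM in GAB242-S. Cacna1b, a neuronal calcium channel gene, had 2744 CPM in CAB52-L, 63.6 CPM in CAB28-S and 0 to 3.58 CPM in the other 6.

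Other genes were far lower in 1 library. C8a, a complement component made by hepatocytes, had 1.32 CPM in CAB228-M and 97.3 to 710 CPM in the other 7. Mme, the peptidase neprilysin, had 0.424 CPM in CAB239-M and 8.52 to 192 CPM in the other 7. Sult2a8, a hepatic sulfotransferase, had 3.57 CPM in CAB52-L and 133 to 1002 CPM in the other 7. These genes were chosen after their values were seen, and 1 library each allows no test.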
